A study of Mus musculus with 7 samples.

Results

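Transcription factors that shape gene expression in hepatocytes, other than nuclear receptors, were followed across 7 tissues of the mouse. They are 8 genes chosen by name: Foxa1, Foxa2, Foxa3, Cebpa, Cebpb, Onecut1, Prox1 and Creb3l3. All 8 have entries among the 50226 gene names of the deposited table, and 6 of them reached 1 FPKM (a fragment level scaled for transcript length and library size) in any tissue. RNA of liver, kidney, skeletal muscle, cortex and 3 adipose depots, the visceral (VAT), the subcutaneous (SCAT) and the brown (BAT), came from wild-type (wt) C57BL/6 mice (C57BL/6N in the study's text) at 36 weeks of age on the diet labelled NCD. Each tissue has 1 library, so no value has a replicate error, no test between tissues was possible, and whether neighbours in an order of levels differ beyond animal-to-animal spread cannot be judged. Depth is unknown, as the table gives FPKM without fragment counts. Summed FPKM ran from 214929 in cortex to 556916 in muscle and reached 3.5211e+06 in SCAT. In these bulk libraries, fewer cells of a type and less RNA per cell cannot be told apart.

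FOXA proteins are forkhead factors that bind closed chromatin and open liver enhancers during development. C/EBPα and C/EBPβ are basic leucine zipper factors of hepatocytes, adipocytes and myeloid cells, and C/EBPβ also takes part in the acute-phase response. ONECUT1 (HNF6) is a cut-homeodomain factor of hepatocytes, bile ducts and pancreas. PROX1 is a homeodomain protein of hepatocytes, lymphatic endothelium and certain neurons, and CREB3L3 (CREBH) is a membrane-bound factor of the endoplasmic reticulum that is cleaved and released under metabolic stress.

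The libraries carried the markers of their labelled tissues. The 6 hepatocyte markers measured in every library (Ttr, Apoa1, Apoa2, Tat, Cps1 and Fgb) summed to 19027 FPKM in liver and between 2.00 and 196 elsewhere, while Alb had no usable value in liver. All 6 kidney markers were at least 4-fold higher in kidney than elsewhere, all 4 neuron markers in cortex, and the adipocyte markers Adipoq, Lep, Plin1 and Cidec summed to 1071 FPKM in VAT, 415 in SCAT, 1419 in BAT and at most 49.9 in the others. The brown adipocyte markers Ucp1, Cidea, Ppargc1a and Dio2 summed to 7391 FPKM in BAT and at most 20.2 elsewhere. The BAT sum came mostly from Ucp1 (6552 FPKM) and Cidea (832). Ppargc1a did not mark BAT, as it was higher in kidney (7.37 FPKM) and muscle (6.28), and Dio2 had only 0.387 FPKM in BAT. Other RNA was also present: all 6 pancreatic acinar markers and all 4 lymphocyte markers were at least 4-fold higher in SCAT than anywhere else, 4 of 5 markers of the male reproductive tract in VAT (of all named genes, 2.55% met this rule in kidney, 8.34% in cortex, 2.68% in SCAT and 1.22% in VAT), and Mylpf of skeletal muscle had 81.9 FPKM in BAT against 5595 in muscle. Their part in the levels below was not tested.

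**Figure D1:**
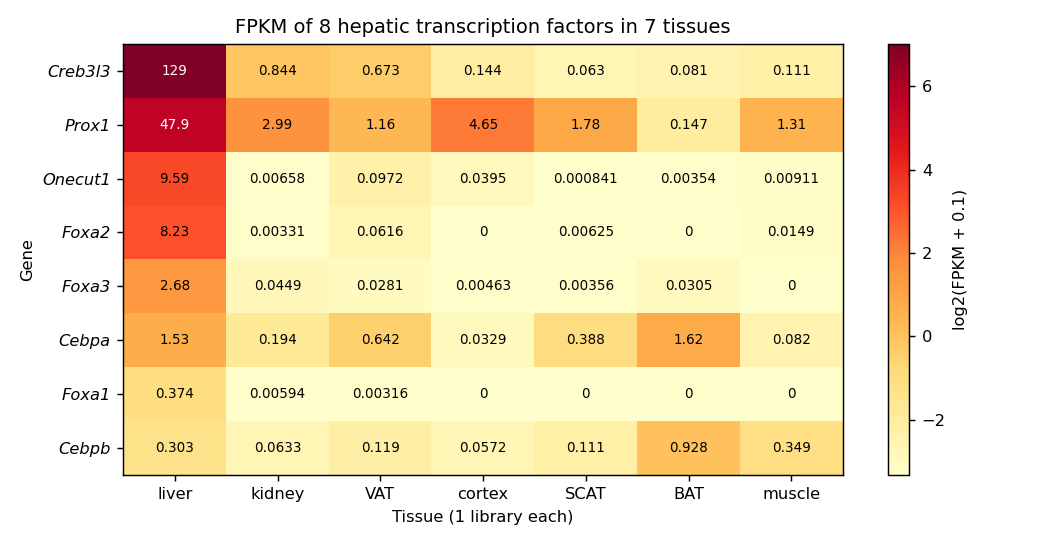
FPKM of the 8 factors (rows) in the 7 tissues (columns, 1 library each); the colour gives log2(FPKM + 0.1) and the printed numbers are FPKM. Creb3l3 reached 129 FPKM in liver and less than 1 elsewhere, and Cebpb was highest in BAT, as was Cebpa unless libraries were scaled by median ratios.

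Liver was the tissue of the highest FPKM for 6 of the 8 factors and BAT for the other 2 (Cebpb and, unless libraries were scaled by median ratios, Cebpa). The levels of Foxa2, Onecut1 and Prox1 come from loci on the strand opposite to the gene, which are set beside the annotated strand after the levels. Over all 19087 named genes with at least 1 FPKM in any tissue, liver was the highest tissue for 16.3% and BAT for 14.1%. Enrichment in a tissue meant a level of 1 FPKM or more there together with a log2(FPKM + 0.1) that exceeded the value of every other tissue by 2 or more (4-fold). By this rule 5 of the 8 factors were enriched in liver (Foxa2, Foxa3, Onecut1, Prox1 and Creb3l3), as were 3.81% of these named genes and 3.38% of 14898 protein-coding genes. The call of Foxa3 was lost with a pseudocount of 1 or a minimum of 5 FPKM. All shares of named genes are over those that reached 1 FPKM, while the factors and lists are counted whole. The median log2 ratio of liver over the highest other tissue was 3.80 for the 8 factors and -1.34 for all named genes. Just outside the rule lay Foxa1, whose log2 ratio of 2.16 passed the fold but whose liver level did not reach 1 FPKM, and the lowest ratio inside it was that of Prox1 (3.34).

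**Figure D2:**
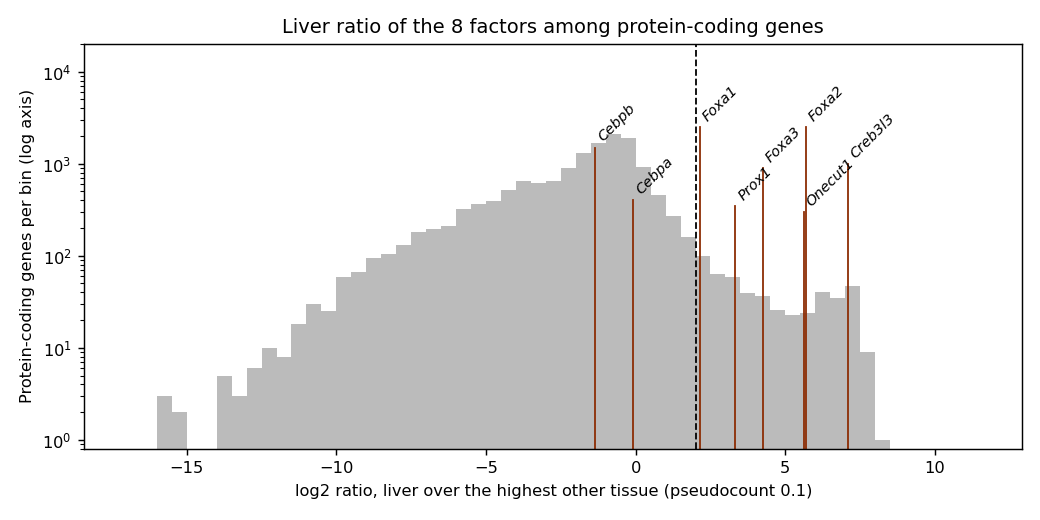
Histogram of the log2 ratio of liver over the highest other tissue for 14898 protein-coding genes (grey, log axis), with the 8 factors as red lines and the 4-fold threshold dashed. Foxa1 lies to the right of the threshold at 2.16 but had under 1 FPKM in liver; Cebpa (-0.075) and Cebpb (-1.35) lie left of 0.

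The promoters of the FOXA genes, of Creb3l3 and of Cebpa are shown because they set the 3 family members that were highest in liver beside the factor with the widest liver ratio and a factor that liver shared with BAT. Sequences are RefSeq's for GRCm38.p6 and run 5′ to 3′ from 250 bases before to 50 bases after an annotated start of transcription. Capitals mark a FOXA motif (TGTTTAC), an ONECUT motif (ATTGAT), a C/EBP motif (TTGCNNAA), a full CRE (TGACGTCA) or a TATA box (TATAAA), each searched on both strands.
Foxa1, chr12:57546062-57546361, minus strand: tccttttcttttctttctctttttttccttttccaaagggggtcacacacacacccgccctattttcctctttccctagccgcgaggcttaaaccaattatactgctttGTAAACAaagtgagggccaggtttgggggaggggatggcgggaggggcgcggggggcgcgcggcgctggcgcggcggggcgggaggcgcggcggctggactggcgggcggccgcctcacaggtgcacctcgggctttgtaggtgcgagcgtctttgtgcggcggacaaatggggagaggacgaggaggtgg
Foxa2, chr2:148046920-148047219, minus strand: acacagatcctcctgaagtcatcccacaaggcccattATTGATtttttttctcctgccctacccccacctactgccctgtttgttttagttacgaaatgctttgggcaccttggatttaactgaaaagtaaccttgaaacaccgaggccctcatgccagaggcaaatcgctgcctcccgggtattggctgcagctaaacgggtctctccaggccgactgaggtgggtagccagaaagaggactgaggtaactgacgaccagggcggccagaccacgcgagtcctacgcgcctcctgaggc
Foxa3, chr7:19023490-19023789, minus strand: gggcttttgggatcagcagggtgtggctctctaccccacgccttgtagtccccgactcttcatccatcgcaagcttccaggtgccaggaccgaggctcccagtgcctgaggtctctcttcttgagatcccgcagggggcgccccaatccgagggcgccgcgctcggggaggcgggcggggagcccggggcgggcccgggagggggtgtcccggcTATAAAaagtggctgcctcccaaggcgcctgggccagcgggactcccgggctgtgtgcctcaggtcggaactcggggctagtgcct
Creb3l3, chr10:81098823-81099122, minus strand: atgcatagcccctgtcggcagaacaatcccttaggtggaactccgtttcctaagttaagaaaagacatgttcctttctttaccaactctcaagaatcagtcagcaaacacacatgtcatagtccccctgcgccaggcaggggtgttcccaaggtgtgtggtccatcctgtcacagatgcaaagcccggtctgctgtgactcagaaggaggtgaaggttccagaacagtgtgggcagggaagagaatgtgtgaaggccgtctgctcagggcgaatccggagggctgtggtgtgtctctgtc
Cebpa, chr7:35119043-35119342, plus strand: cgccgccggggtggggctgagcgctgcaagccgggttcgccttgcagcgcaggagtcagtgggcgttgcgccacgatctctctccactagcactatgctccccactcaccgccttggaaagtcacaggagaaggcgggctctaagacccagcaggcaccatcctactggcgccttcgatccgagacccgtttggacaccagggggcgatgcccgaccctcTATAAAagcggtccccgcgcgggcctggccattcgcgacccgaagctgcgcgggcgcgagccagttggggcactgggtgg
RefSeq lists 12 such windows for the 8 factors, and all 8 have at least 1. The Foxa1 window holds a FOXA motif at position -141 (GTAAACA, the reverse orientation), and 3.65% of 32851 promoters hold this motif. The Foxa2 window holds an ONECUT motif at position -213 (7.54% of promoters). A TATA box lies at position -36 in Foxa3 and -30 in Cebpa (13.6% of promoters hold one in the window). None of the 5 motifs was found in the Creb3l3 window shown, and no C/EBP motif (10.8% of promoters) or full CRE (1.79%) in any of the 12 windows. A match is a description of letters only.

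Creb3l3, whose protein drives genes of triglyceride clearance and acute-phase secretion, had the highest level of the 8. Its FPKM was 129 in liver, 0.844 in kidney, 0.673 in VAT, 0.144 in cortex, 0.111 in muscle, 0.0810 in BAT and 0.0630 in SCAT. Liver was thus set apart from every other tissue, with a log2 ratio of 7.10 over kidney and 9.63 over SCAT. In the liver library 97.2% of the named genes with at least 1 FPKM in any tissue lay below Creb3l3. In GRCm38 the gene runs from 81084324 to 81098874 of chromosome 10 (minus strand) in up to 12 exons, and the table lists 1 locus under its name, on that strand.

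Prox1, which is also a repressor of bile acid synthesis genes, was the next most abundant factor and, at the opposite-strand locus used, the one found most widely. It had 47.9 FPKM in liver, 4.65 in cortex, 2.99 in kidney, 1.78 in SCAT, 1.31 in muscle, 1.16 in VAT and 0.147 in BAT. It alone of the 8 had at least 1 FPKM in kidney, VAT, cortex, SCAT and muscle, and its level in BAT was the lowest. Only at that locus did Prox1 reach 1 FPKM outside liver. On the annotated strand it had 4.17 FPKM in liver, 0.311 in cortex, 0.254 in kidney and 0.139 in SCAT. Levels there were lower throughout, but these tissues came in the same order. At the locus used, liver over cortex gave a log2 ratio of 3.34, liver over muscle 5.09. The lymphatic endothelium markers Lyve1, Pdpn, Flt4, Ccl21a and Reln, cells that also express Prox1, summed to 26.4 FPKM in liver, 19.2 in SCAT, 14.5 in VAT, 11.0 in muscle, 6.57 in cortex, 5.06 in BAT and 2.81 in kidney. Reln made up much of the sum in liver (14.3 FPKM) and cortex (5.17), Ccl21a was at 0 in 6 of the 7 libraries, and the part of lymphatic cells in Prox1 was not tested. The gene lies on the minus strand of chromosome 1 from 190118035 to 190170714.

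Onecut1 and Foxa2 had levels of the same order in liver and very low ones elsewhere. Onecut1 had 9.59 FPKM in liver, 0.0972 in VAT, 0.0395 in cortex, 0.00911 in muscle, 0.00658 in kidney, 0.00354 in BAT and 0.000841 in SCAT. Foxa2 had 8.23 FPKM in liver, 0.0616 in VAT, 0.0149 in muscle, 0.00625 in SCAT and 0.00331 in kidney, and it was listed at 0 in cortex and BAT. Both stayed below 0.1 FPKM in every library other than liver, with log2 ratios over VAT of 5.62 and 5.69. The bile duct markers Krt19, Krt7, Epcam, Sox9 (at a locus shared with BC006965) and Spp1, cells in which ONECUT1 also acts, summed to 9.94 FPKM in liver and to 111 in kidney, mostly from Spp1 (88.0), and pancreatic acinar markers to 129 in SCAT. The part of these cells in Onecut1 was not tested. Onecut1 has its annotation on chromosome 9, plus strand, from 74861921 to 74891781, where the lincRNA Gm20649 overlaps it on the same strand, and Foxa2 on the minus strand of chromosome 2 from 148042877 to 148046969.

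Within the FOXA family, Foxa3 was the second most abundant in liver and Foxa1 the least. Foxa3 had 2.68 FPKM in liver, 0.0449 in kidney, 0.0305 in BAT, 0.0281 in VAT, 0.00463 in cortex and 0.00356 in SCAT, and was listed at 0 in muscle. Its log2 ratio of liver over kidney was 4.26, and 1.81 with a pseudocount of 1. Foxa1 had 0.374 FPKM in liver, 0.00594 in kidney and 0.00316 in VAT, with 0 listed for cortex, SCAT, BAT and muscle. Foxa2 made up 73.0% of the summed FOXA FPKM in liver, Foxa3 23.7% and Foxa1 3.31%. When loci on the annotated strand alone were used, an alternative chosen after the data were seen, the shares were 26.8% for Foxa2, 64.3% for Foxa3 and 8.97% for Foxa1. Which FOXA gene leads in liver therefore depends on the strand that is read. No other tissue had a FOXA sum above 0.0928 FPKM (VAT), too low for shares to be given. Foxa3 lies on chromosome 7 from 19013284 to 19023538 and Foxa1 on chromosome 12 from 57540628 to 57546916, both on the minus strand.

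Cebpa and Cebpb were the factors in which liver did not stand apart from BAT, although it was above both white depots. Cebpa had 1.62 FPKM in BAT, 1.53 in liver, 0.642 in VAT, 0.388 in SCAT, 0.194 in kidney, 0.0820 in muscle and 0.0329 in cortex. BAT and liver were close together, followed by the white depots, with kidney, muscle and cortex below them. The BAT level was 2.52-fold that of VAT, 4.17-fold that of SCAT and 1.06-fold that of liver, and with libraries scaled by median ratios the log2 ratio of liver over BAT turned from -0.075 to 0.095. The same scaling gave 1.56-fold over VAT and 2.46-fold over SCAT. Cebpb had 0.928 FPKM in BAT, 0.349 in muscle, 0.303 in liver, 0.119 in VAT, 0.111 in SCAT, 0.0633 in kidney and 0.0572 in cortex. It thus stayed below 1 FPKM in all 7 libraries, with BAT 3.06-fold above liver and 7.82-fold above VAT (4.85-fold with that scaling). The ratio of Cebpa to Cebpb FPKM was 5.41 in VAT, 5.06 in liver, 3.49 in SCAT, 3.07 in kidney and 1.74 in BAT, and 0.235 in muscle. In cortex both genes were below 0.1 FPKM, too low for a ratio. Macrophage and neutrophil markers (Adgre1, Cd68, Lyz2, Csf1r, S100a8 and S100a9), of cells that also use C/EBP factors, summed to 72.1 FPKM in BAT, below the 124 in SCAT and 104 in VAT, and their part in the C/EBP levels was not tested.

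Both C/EBP genes have few exons and overlap a gene on the other strand. Cebpb (chromosome 2, 167688915 to 167690418, plus strand) has 1 annotated exon, and 908 bases of it lie within the minus-strand gene Tmem189. Cebpa (chromosome 7, 35119293 to 35121928, plus strand) has up to 2 exons and overlaps the antisense gene Gm45091 by 313 bases. The table lists 1 locus for each, on its annotated strand, and none on the other strand.

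For Foxa2, Onecut1 and Prox1 the table lists loci on both strands, as read from the order of the loci, and the higher locus, used above, is the opposite-strand one. In liver, Foxa2 had 1.12 FPKM on the annotated and 8.23 on the opposite strand, Onecut1 2.84 and 9.59, and Prox1 4.17 and 47.9, with a further opposite-strand locus of Prox1 at 11.5. The levels thus differ by 7.38-fold, 3.37-fold and 11.5-fold between the strands. The lead of liver was found on both strands: on the annotated strand the log2 ratios of liver over the highest other tissue were 3.51, 4.04 and 3.38, and all 3 genes were enriched in liver. Levels outside liver did depend on the strand, and annotated-strand Onecut1 was listed at 0 in kidney, SCAT, BAT and muscle. For Prox1 the opposite strand was 11.5-fold to 28.4-fold above the annotated one in each tissue. Prox1os and Gm28172 are annotated on the plus strand and overlap Prox1; they have loci of their own, with 1.33 and 1.71 FPKM in liver.

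**Figure D3:**
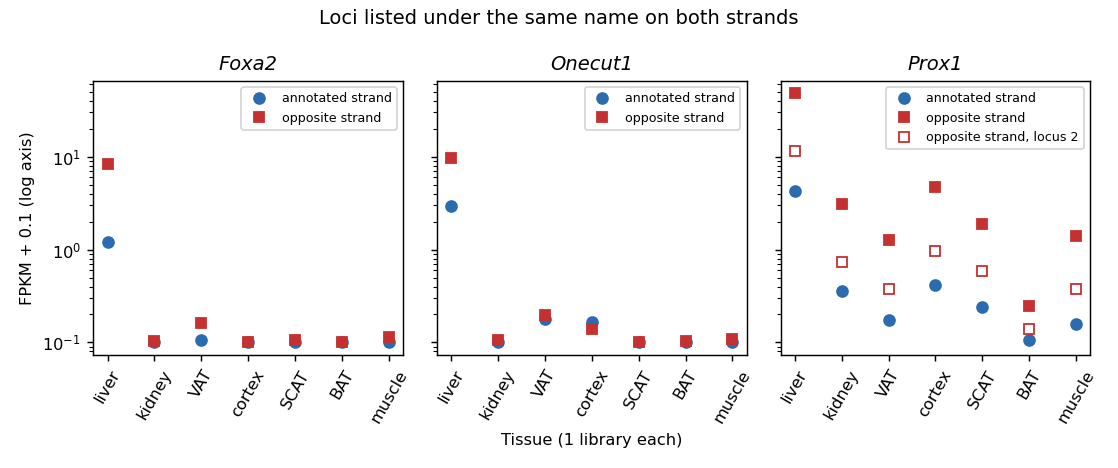
FPKM + 0.1 (log axis) in the 7 tissues for the loci listed under Foxa2, Onecut1 and Prox1, on the annotated strand (blue circles) and the opposite strand (red squares, open for a further locus). In liver the opposite strand is higher for all 3 genes, and liver is the highest tissue on both strands.

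The strand of the higher locus went with the number of exons in the table as a whole. Among protein-coding genes that reached 1 FPKM, the opposite strand was higher for 56.0% of 282 genes with 1 exon and 54.5% of 604 genes with 2, but for 11.6% of 6271 genes with over 10. The median annotated-strand FPKM was 0.415 for genes with 1 exon, 2.02 for genes with 2 and 12.2 for genes with over 10. Cebpb has 1 annotated exon, Foxa1, Foxa3, Cebpa and Onecut1 have up to 2, Foxa2 3, Prox1 5 and Creb3l3 12. Creb3l3 was the factor with the highest annotated-strand level. Per the labels the libraries were made with a directional kit, and the library-type setting used for counting is not given in the sources used here, so its part in these levels was not tested. The order of levels between the factors and the size of the Cebpa to Cebpb ratio are therefore given with this limit.

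**Figure D4:**
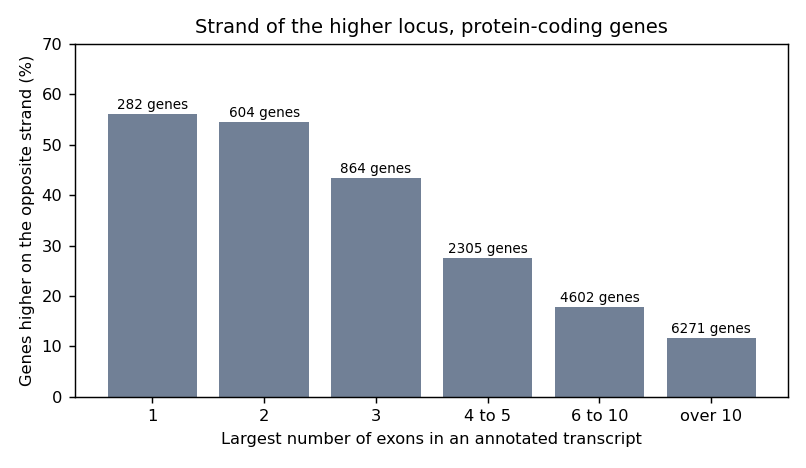
Share of protein-coding genes (bars, %) whose higher locus is the opposite-strand one, by the largest number of exons in an annotated transcript, with the number of genes above each bar. The share goes from 56.0% at 1 exon to 11.6% at over 10.

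VAT was the next highest tissue after liver for Foxa2 and Onecut1, and its level was compared with that of other liver genes. Foxa2 in VAT was at 0.748% of its liver FPKM, Foxa1 at 0.846%, Onecut1 at 1.01%, Foxa3 at 1.05%, Creb3l3 at 0.521% and Prox1 at 2.43%. The 499 other liver-enriched protein-coding genes had a median of 1.93% in VAT (quartiles 0.859% and 7.17%), and the 6 hepatocyte markers had between 0.559% and 2.29%. At the loci used, those of these 6 factors other than Prox1 were thus near or below the lower quartile of liver genes in VAT. On the annotated strand the share was 2.76% for Onecut1, above that median, 1.74% for Prox1 and 0.567% for Foxa2. In SCAT the median of the same liver genes was 0.321%, and Onecut1 was at 0.00876%, Foxa2 at 0.0759% and Foxa3 at 0.133%. These SCAT shares rest on 0.000841, 0.00625 and 0.00356 FPKM. In VAT the FOXA genes and Onecut1 were also below 0.1 FPKM. The fragments behind such levels are unknown, so their place against the liver genes is uncertain. Alb, which has no liver value to compare with, had 253 FPKM in VAT. Whether RNA from liver contributed to the VAT values was not tested.

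**Figure D5:**
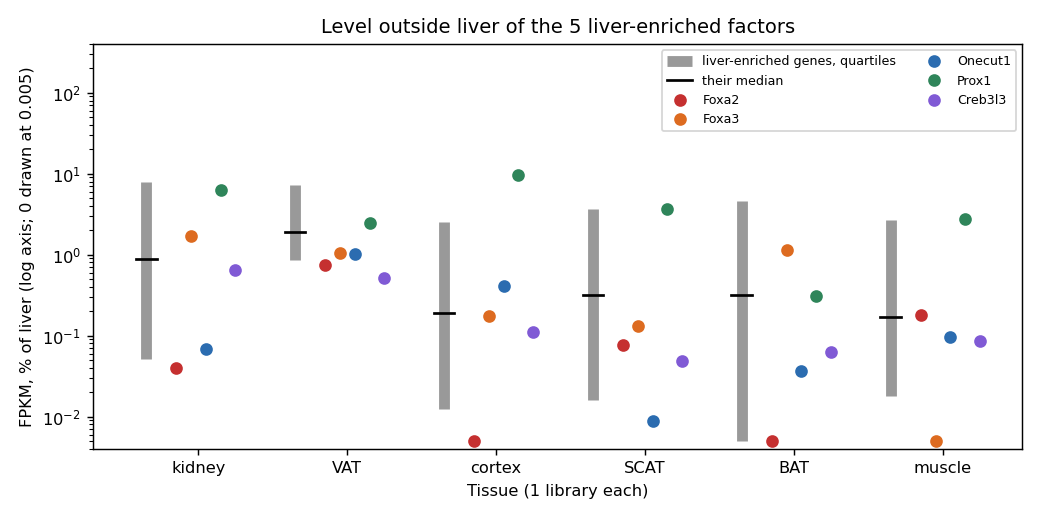
FPKM in each of the 6 other tissues as a percentage of liver (log axis, 0 drawn at 0.005) for the 5 liver-enriched factors (points), with the median (black) and quartiles (grey) of 499 other liver-enriched protein-coding genes. At the opposite-strand locus used, Prox1 lies above the upper quartile in cortex, at 9.71%. In SCAT (3.71% against 3.70%) and muscle (2.73% against 2.66%) Prox1 lies barely above it. In VAT, 4 of the 5 factors lie between 0.521% and 1.05%.

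Genes whose pattern was nearest to each factor were named by the root mean square difference of centred log2(FPKM + 0.1) over the 7 tissues, among 19087 named genes. For Onecut1 they were Pla2g12b (0.14), Sdr9c7 (0.16) and Dnase2b (0.16), and for Foxa2 Cyp3a59 (0.10), Gm26271 (0.10) and Mup2 (0.14), which belongs to a family of near-identical genes, so its own level is uncertain. Foxa3 was nearest to AC159502.1 (0.19), Inhbe (0.20) and Gm26493 (0.20), and Creb3l3 to AC116503.1 (0.28), Gm4756 (0.37) and the coagulation factor gene F5 (0.42). All 12 of these genes were highest in liver, which follows from their choice by likeness to factors that lead in liver. Genes nearest to Onecut1, Foxa2 and Foxa3 lie mostly below the added 0.1 outside liver, so the likeness there rests mainly on a similar liver level. Cebpa was nearest to Tspan12 (0.27), with 102 FPKM in liver and 94.6 in BAT, and to Ifnar2 and Gm21970 (both 0.35), which share 1 locus with Il10rb. Cebpb was nearest to Gm8258 (0.20), Tmed5 (0.25) and Gm6658 (0.28), all highest in BAT, which again follows from the choice. Prox1 had the least close neighbours, Gm15638 (0.57), Adra1b (0.79) and Lrrc3 (0.84). Foxa1, whose low level flattens its pattern, was nearest to Pitpnm2os2, Hsp90b1 and Cnpy3 (each 0.27), the last at a locus shared with Cul7.

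Among 12 relatives of the factors, 2 were enriched in liver (3.81% of all named genes were): Onecut2, with 11.0 FPKM in liver and at most 0.182 elsewhere (cortex), and Cebpe, a myeloid C/EBP gene, with 4.05 in liver and at most 0.0534 (VAT). Both values come from loci opposite to the annotated strand. The median log2 ratio of liver over the highest other tissue was -0.46 in this list, against -1.34 over all named genes. Cebpd, Cebpg, Cebpz and Ddit3 showed no liver lead; Cebpg, the one with the lowest ratio (-1.70), had 5.11 FPKM in BAT and 4.94 in kidney. Of the other membrane-bound CREB3 relatives, Creb3 had 34.4 FPKM in liver and 11.3 to 23.1 elsewhere, and Creb3l4 had 7.48 in liver and 11.0 in muscle. Creb3l3 was the only member of this family enriched in liver. The locus that Prox2 shares with Rps6kl1 had 29.7 FPKM in BAT and 6.94 in liver.

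Of 16 other hepatic transcription factors outside the nuclear receptors, Gata4 alone was enriched in liver (3.53 FPKM, from the opposite strand, and at most 0.0993 elsewhere), 1 gene beside a share of 3.81% over all named genes. Lhx2 was enriched in cortex (10.8 FPKM, opposite strand), where 8.34% of named genes were. The median log2 ratio was -0.065. Hhex (2.25 FPKM in liver, log2 ratio 1.82), Klf15 (13.6, 1.59, opposite strand), Tbx3 (4.85, 1.23) and Xbp1 (28.2, 1.15) were highest in liver but less than 4-fold above the next tissue.

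Textbook targets were counted next to the factors. Of 15 targets of FOXA, C/EBP, ONECUT1 and PROX1 in hepatocytes, 12 had values in all tissues and 8 were enriched in liver, against 3.81% of all named genes, with a median log2 ratio of 4.48. They include the thyroid hormone carrier gene Ttr (3530.1 FPKM in liver), the fibrinogen genes Fgg (1283) and Fgb (808), Tdo2 (1654), Cps1 (666) and Tat (159), enzymes of amino acid breakdown and the urea cycle, and Cyp7a1 (10.1, and 0.273 in VAT), the rate-limiting enzyme of bile acid synthesis. Pck1 and G6pc, the gluconeogenic enzymes, were not: Pck1 had 1226 FPKM in BAT, 930 in kidney and 568 in liver, and G6pc had 57.0 in liver and 36.7 in kidney. Of 8 targets of CREB3L3, 7 had values in all tissues and 6 were enriched in liver, against the same 3.81%, with a median log2 ratio of 6.49. Apoa5 had 1182 FPKM in liver, Hamp 337, Apoa4 279, Apcs 110.1 and Fgf21 12.3, and each was at most 11.4 FPKM in any other tissue. The values of G6pc, Igfbp1, Cyp7a1, Apcs and Fgf21 come from opposite-strand loci. The exception among CREB3L3 targets was Cidec, a lipid droplet protein, with 746 FPKM in BAT, 587 in VAT and 15.3 in liver. Of 7 adipocyte targets of C/EBP, 6 had values in all tissues, of which 0 were enriched in liver and 1 in BAT, where 0.765% of named genes were: Plin1 (413 FPKM). Fabp4 had 9367 FPKM in BAT, 5143 in VAT and 2830 in SCAT, and Adipoq was highest in VAT (330.2). Pparg, the adipogenic receptor gene, had 158 FPKM in BAT and 9.69 in liver.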

How the data were processed

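Per the labels, total RNA was depleted of rRNA and made into libraries with a directional kit. According to the study's methods, the authors removed adapters with flexbar, filtered rRNA reads with Bowtie2 2.2.9, aligned to GRCm38 (mm10) with STAR 2.6.0c and assembled, merged and compared transcripts with Cufflinks 2.2.1 and cuffdiff. The authors deposited FPKM for 94339 loci in 21 comparisons, and each locus has the same FPKM in all 6 comparisons of a tissue. Columns with the authors' fold changes, test statistics, p-values and q-values were not used.

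The 151 loci that carry a FAIL status were dropped, and zeros of status LOWDATA (225 values) were taken as missing. A name with several loci was given the locus with the highest maximum FPKM, and a locus that carries several names was used for all of them. Locus bounds are shared by neighbouring loci, so coordinates and exons are those of GENCODE M21 for GRCm38, which holds 91.9% of the names. Strand was read from the order of loci on each chromosome, by which 75.3% of 62045 pairs of locus and name lie on the annotated strand. Differences were taken as log2(FPKM + 0.1), which understates those of low genes. As tissues have no replicates, p-values were not computed, and genes were counted by a fixed rule of size. The code of this rule was tested on simulated data with large changes, which does not measure its error in single libraries. Shares over all named genes were counted over the 19087 with values in all 7 tissues and at least 1 FPKM in any of them.

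The members and the lists of relatives, targets and markers were chosen with earlier results of these data known. Named are all 8 factors, the 3 genes nearest to each, for the lists of relatives, factors and targets up to 4 members past the rule by FPKM, and those at the ends of such a list; other genes named (Alb, Prox1os, Gm28172, Tmem189, Gm45091, Gm20649 and the remaining list members) were chosen after their values were seen. Values of 2 list members are not reported here. Alternatives covered pseudocount, scaling, locus, strand, status, minimum and fold. Python 3.11.15, pandas 2.3.3, NumPy 2.4.6 and matplotlib 3.10.9 were used.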

Additional observations from a re-analysis of the deposited data

How the results depend on the processing

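No paired analysis was possible because tissues were profiled in single libraries, which also leaves no replicate to omit. The number of factors enriched in liver, 5, was 4 with a pseudocount of 1 or a minimum of 5 FPKM, 6 with no minimum, and 5 under the other 12 alternatives. The number with liver as the highest tissue, 6, was 7 with median-of-ratios scaling, under which the log2 ratio of Cebpa turned to 0.095, and 6 under the other 5. That scaling moved log2 values up in SCAT (0.49), VAT (0.42) and cortex (0.19) and down in muscle (-0.38), BAT (-0.27), liver (-0.092) and kidney (-0.044). With a pseudocount of 1 the log2 ratios of Foxa1 (0.45) and Foxa3 (1.81) lay below 2, since a larger pseudocount shrinks the ratios of low genes. The other 61 of 64 log2 ratios kept their direction and their side of the threshold. With a 2-fold rule 1303 named genes were enriched in liver, against 728. On the annotated strand, an alternative chosen after the data were seen, the shares of FOXA FPKM in liver were 8.97% (Foxa1), 26.8% (Foxa2) and 64.3% (Foxa3), because the Foxa2 locus on that strand is the lower of its pair. By Pearson r in place of the root mean square difference, 2 of the 3 nearest genes were shared for Creb3l3, 1 for Cebpa and Prox1, and 0 for the other 5 factors, so the nearest genes depend on the measure. The cause was not tested for the nearest genes. With no counts in the table, the fragments behind values below 0.1 FPKM are unknown.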

Other observations

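Genes that move and cleave membrane-bound factors such as CREB3L3 were looked at as a list of 6, of which 1 was enriched in liver (3.81% of named genes with at least 1 FPKM were) and 1 in BAT (0.765%). Mbtps1 and Mbtps2, the Golgi proteases, were found in every tissue, with 11.3 and 2.10 FPKM in liver, the latter at a locus shared with Yy2. Scap, the escort protein of the sterol-sensing factors, had 20.7 FPKM in liver and at most 11.1 elsewhere (kidney), and Atf6, itself such a factor, had 25.7 in liver and 15.5 in muscle, from an opposite-strand locus. The retention proteins Insig1 and Insig2 went apart: Insig2 was enriched in liver, with 226 FPKM there and 16.2 in muscle, its next tissue, and Insig1 in BAT, with 56.7 FPKM there and 8.06 in liver.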
